A study of Homo sapiens with 2 samples.

Results

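The genes described here are 8 secreted plasma proteins of the liver programme, read in the epithelial cells of human colon organoids with and without inflammatory cytokines. They were chosen by symbol: the carriers TTR, ALB, AHSG and RBP4, the fetal albumin homologue AFP, and the fibrinogen chains FGA, FGB and FGG. All 8 were found among the 36601 genes of the deposited matrices, and all 8 passed the minimum of 10 CPM (a gene's unique molecular identifiers, UMIs, per 1000000 epithelial UMIs of its library). The starting cells were 1383D6, a human iPS line in established use, taken through endoderm induced with activin A, a step with FGF2, and embedding in basement membrane gel for colonic differentiation. Agents named for that last step include EGF, forskolin, PD98059 and 5-aza-2'-deoxycytidine, and both cultures share this history. One culture received no cytokine (CNT). The other (3CK) was kept for 8 days with the cytokines IL-1β, TNF-α and IFN-γ, in work titled as a model of ulcerative colitis. Each group is 1 library from 1 line. Differences below therefore have no replicate behind them and none was tested, and the 95% intervals cover counting error alone.

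Transthyretin (TTR) carries thyroxine and, bound to retinol-binding protein (RBP4), vitamin A. Albumin (ALB) holds the osmotic pressure of plasma and binds fatty acids, alpha-fetoprotein (AFP) takes its place in the fetus, and fetuin-A (AHSG) binds calcium phosphate. Fibrinogen is built from equal numbers of Aα, Bβ and γ chains, the products of FGA, FGB and FGG, and thrombin cleaves it to form the clot. In adult liver, inflammation lowers the output of TTR, ALB, AHSG and RBP4, which are therefore called negative acute-phase proteins. Fibrinogen is classed with the positive ones, whose output is raised, mainly by IL-6 acting through STAT3 and C/EBP factors. Yolk sac and fetal gut endoderm also make several of these proteins, and AFP marks that stage.

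In the deposited matrices CNT held 3257 barcodes with 105314879 UMIs and 3CK held 1641 barcodes with 94887438 UMIs, and no barcode was shared. Epithelial cells were barcodes with at least 10000 UMIs, at least 2 EPCAM UMIs per 10000 and fewer than 5 per 10000 of the collagen transcripts COL1A1, COL1A2 and COL3A1 together. The rule kept 943 CNT and 717 3CK cells, which are 64.7% and 72.1% of the barcodes of that depth that passed filters on detected genes, mitochondrial share and doublets. They carried 68374274 and 68058536 UMIs, so that 3 UMIs equal 0.0439 and 0.0441 CPM. Median depth was 68469 UMIs per cell in CNT and 93963 in 3CK. Cells with at least 5 collagen UMIs and fewer than 2 EPCAM UMIs per 10000 (335 in CNT, 109 in 3CK, median depths 52449 and 77791 UMIs) served as the level that free RNA gives in cells which should lack these proteins. Among 9782 genes that reached 10 CPM in CNT or 3CK, 7.74% were at least 2-fold lower and 8.07% at least 2-fold higher in 3CK, and the median log2 ratio was 0.06. Scaled to a total without mitochondrial, ribosomal and the most abundant genes, that median was -0.08, and 10.2% were lower against 6.90% higher.

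The members lie in a few places of the genome (GRCh38, GENCODE 44 gene bounds), and all are protein-coding. ALB (chr4:73397114-73421482) and AFP (chr4:73431138-73456174) stand in line on the plus strand of chromosome 4, with 9655 bp between them. The fibrinogen genes share 49957 bp of the same chromosome: FGB (chr4:154563011-154572807) on the plus strand, and FGA (chr4:154583126-154590742) and FGG (chr4:154604134-154612967) on the minus strand. AHSG is at chr3:186613060-186621318 on the plus strand, RBP4 at chr10:93591687-93601744 on the minus strand and TTR at chr18:31557009-31598833 on the plus strand.

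RefSeq promoter windows were matched for 7 members, with 10 start sites in all. Within 250 bases before the start, ALB, AFP, FGA and FGB each held 1 match to a C/EBP motif (TTGCNNAA). These 4 windows are shown because they lie in the 2 gene clusters and all carry that motif. Capitals mark the motif matches on either strand: C/EBP in all 4, a STAT match (TTCNNNGAA) in FGA and a TATA box (TATAAA) in AFP. The sequences are from RefSeq (GRCh38.p14), 5′ to 3′ on each gene's own strand, at chr4:73404037-73404254 for ALB, chr4:73435971-73436220 for AFP, chr4:154590743-154590992 (minus strand) for FGA and chr4:154562761-154563010 for FGB. ALB is cut to the 218 bases that no annotated UTR covers.
ALB: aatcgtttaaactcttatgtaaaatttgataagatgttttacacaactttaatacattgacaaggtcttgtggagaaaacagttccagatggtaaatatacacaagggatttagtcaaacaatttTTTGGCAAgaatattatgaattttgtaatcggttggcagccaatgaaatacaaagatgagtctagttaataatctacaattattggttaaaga
AFP: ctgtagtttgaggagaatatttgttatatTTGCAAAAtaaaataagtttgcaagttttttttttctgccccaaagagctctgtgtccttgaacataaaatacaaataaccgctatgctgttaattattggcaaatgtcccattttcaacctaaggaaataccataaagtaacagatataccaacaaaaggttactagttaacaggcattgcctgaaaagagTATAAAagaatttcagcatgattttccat
FGA: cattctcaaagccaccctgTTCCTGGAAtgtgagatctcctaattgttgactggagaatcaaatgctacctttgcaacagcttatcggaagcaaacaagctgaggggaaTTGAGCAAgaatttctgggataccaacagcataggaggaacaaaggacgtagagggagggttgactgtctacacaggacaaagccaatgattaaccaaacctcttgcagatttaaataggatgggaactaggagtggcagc
FGB: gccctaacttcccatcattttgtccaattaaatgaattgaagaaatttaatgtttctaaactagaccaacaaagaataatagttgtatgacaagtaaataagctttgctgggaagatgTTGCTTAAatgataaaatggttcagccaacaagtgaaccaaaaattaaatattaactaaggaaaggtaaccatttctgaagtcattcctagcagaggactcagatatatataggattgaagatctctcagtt
Of 35116 RefSeq promoters, windows of the same length held the C/EBP letters in 9.05%, the STAT letters in 6.57% and the TATA letters in 10.7%. The C/EBP matches began 221 bases before the start in AFP, 141 in FGA, 132 in FGB and 125 in ALB. The FGA match to the STAT letters lay farther out, at 231 bases. AHSG had a C/EBP match and an HNF4 match (CAAAGTCC, in 1.02% of promoters). FGG held none of the motifs named here, but an annotated UTR overlapped 193 of the 250 bases of its window. Among the 3 RBP4 starts, 1 window held a STAT match, another a C/EBP match and a TATA box, and the third TATA letters only. An annotated UTR overlapped 124 bases of the window with the C/EBP match and 150 bases of the third. No window held the NF-kB consensus (5.21% of promoters) or the interferon-stimulated response element, ISRE (3.02%). These are matches of letters, and binding was not measured.

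All 8 members were lower in the cytokine-treated epithelium, and 6 of them were at least 2-fold lower, where 7.74% of all genes tested were. The carriers had a median log2 ratio of -1.27 (range -1.84 to -0.45, 2 of 4 at least 2-fold lower), and the fibrinogen chains had -1.47 (range -1.48 to -1.20, 3 of 3). Fibrinogen, a positive acute-phase protein of adult liver, was thus lower here as well, with the ratios of all 3 chains inside the range of the negative acute-phase carriers. No member was higher. The plot of log2 ratios by gene group sets the members beside related lists.

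**Figure D1:**
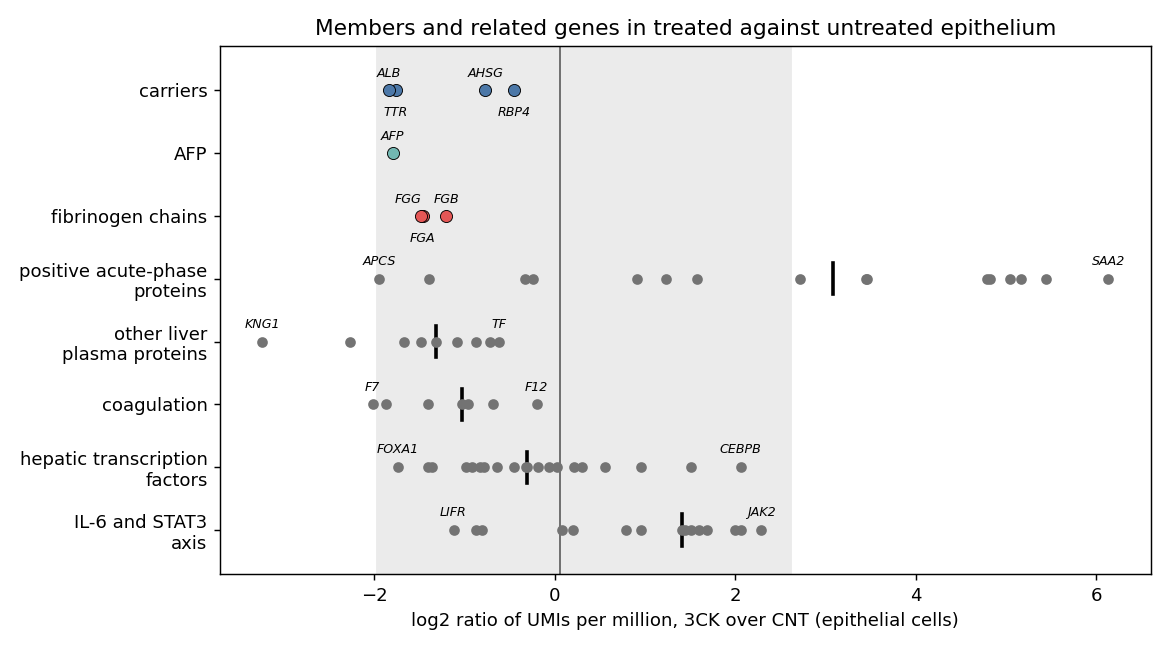
Log2 ratio of CPM, 3CK over CNT, in epithelial cells (horizontal axis), for the 8 members and for genes with at least 10 CPM in 5 related lists (rows). Short black bars are list medians, the vertical line is the median of all 9782 genes tested (0.06) and the grey band holds the middle 95% of them (-1.97 to 2.62). Carriers, AFP and fibrinogen chains all lie left of the line, while most of the plotted positive acute-phase proteins lie right of it.

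TTR was the most abundant transcript of the epithelium in both libraries. Its 4519101 UMIs in CNT were 66094 CPM, or 6.61% of all epithelial UMIs, and its 1325547 UMIs in 3CK were 19477 CPM, or 1.95%. This is 3.39-fold lower (log2 -1.76, interval -1.77 to -1.76), which placed it among the lowest 3.1% of all genes tested. The median cell had 53559 CPM of TTR in CNT and 10443 in 3CK. Only 58 of 717 treated cells (8.09%) were above the untreated median, and 509 (71.0%) were below the untreated 25th percentile. The 2 distributions overlapped, but their centres stood far apart.

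Albumin had the largest log2 difference of the 8. ALB went from 1465 CPM in CNT to 410 CPM in 3CK (log2 -1.84, interval -1.86 to -1.82), and from rank 104 to rank 359 among all genes of the epithelium. It was also uneven between cells: its median was 438 CPM and its 95th percentile 6992 CPM in CNT, against 118 and 1811 CPM in 3CK. The top 10% of cells held 54.0% of all ALB UMIs in CNT and 51.9% in 3CK, so the concentration in a minority of cells was about the same at a lower level. In 3CK, 203 cells (28.3%) were above the CNT median, a larger part than for TTR.

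RBP4, the partner of TTR in plasma, had the smallest difference. It had 2482 CPM in untreated and 1813 CPM in treated cells (log2 -0.45, interval -0.46 to -0.44), and 18.9% of all genes tested had a ratio as low. Median cells held 1650 and 1224 CPM, and 280 treated cells (39.1%) were above the untreated median, so that the libraries overlapped widely. The ratio of RBP4 to TTR UMIs was therefore higher in 3CK: 0.0375 in CNT and 0.0931 in 3CK over all epithelial UMIs, with 0.0354 and 0.113 in the median cell with TTR.

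AHSG was the scarcest member and the most restricted. It had 75.2 CPM in CNT and 44.2 CPM in 3CK (log2 -0.77, interval -0.83 to -0.70). The median cell of either library had no AHSG UMI, and the top 10% of cells held 83.3% of its UMIs in CNT and 79.4% in 3CK. The 95th percentile was 420 CPM in untreated and 251 CPM in treated cells, and single cells reached 5298 and 2239 CPM.

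AFP, given apart as a fetal protein that is not classed with the negative carriers, had rank 6 by abundance in the CNT epithelium and rank 56 in 3CK. It had 7499 CPM in CNT and 2158 CPM in 3CK (log2 -1.80, interval -1.81 to -1.79). Only 66 treated cells (9.21%) were above the untreated median of 5973 CPM, and the treated median was 1418 CPM. AFP and its chromosomal neighbour ALB were lower by nearly the same factor: there were 5.12 AFP UMIs per ALB UMI in CNT and 5.26 in 3CK. In the median cell with both, the ratio went the other way, from 8.34 in CNT to 7.45 in 3CK.

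The 3 fibrinogen chains were all high in untreated epithelium. FGB, the Bβ chain, was the most abundant, with 3362 CPM in CNT and 1464 CPM in 3CK (log2 -1.20, interval -1.21 to -1.19). FGA, the Aα chain, had 1373 and 497 CPM (log2 -1.47, interval -1.48 to -1.45). FGG, the γ chain, had 1118 and 400 CPM (log2 -1.48, interval -1.50 to -1.46). FGB was thus the least lowered chain, and FGA and FGG had overlapping intervals.

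Cell by cell, the treated fibrinogen values were lower at the centre, and the upper end differed less. Median FGB was 2737 CPM in CNT and 740 CPM in 3CK, while its 95th percentile was 9292 and 6324 CPM. Its 95th percentile was 8.16 times its 25th percentile in CNT and 23.4 times in 3CK, so treated cells were more unequal. FGA medians were 763 and 178 CPM, and FGG medians were 565 and 149 CPM. Their 95th percentiles were 4873 and 2594 CPM for FGA and 3819 and 1875 CPM for FGG. The share of treated cells above the untreated median was 17.0% for FGB, 20.9% for FGA and 20.6% for FGG, and 14 treated cells (1.95%) exceeded the untreated 95th percentile of FGB, against 6 (0.84%) for FGA and 6 for FGG.

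**Figure D2:**
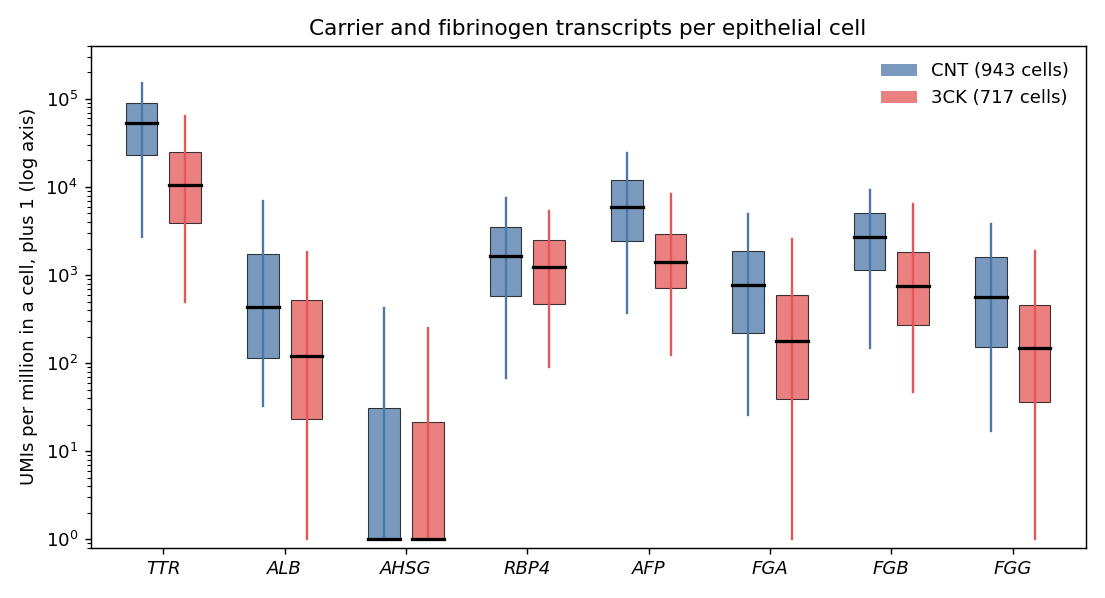
CPM per epithelial cell plus 1, on a log axis, for each member in CNT (blue, 943 cells) and 3CK (red, 717 cells). Boxes span the lower to the upper quartile with the median as a black line, and thin lines run from the 5th to the 95th percentile. Treated boxes lie lower for TTR, AFP and the fibrinogen chains, overlap broadly for RBP4, and AHSG medians lie at the bottom because most cells had no UMI.

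The composition of fibrinogen UMIs was nearly kept. FGB made 57.4% of the summed fibrinogen UMIs in CNT (interval 57.3 to 57.6%) and 62.0% in 3CK (61.7 to 62.2%). FGA made 23.5% and 21.1%, and FGG made 19.1% and 17.0%. With each cell given equal weight FGB made 62.9% and 65.5%. The shift toward FGB went the same way by both measures, and was small beside the 2.30-fold to 2.79-fold differences of the chains themselves. Summed, the chains had 5853 CPM in CNT and 2362 CPM in 3CK (log2 -1.31, interval -1.32 to -1.30), and the carriers, of which TTR is the bulk, had 70115 and 21744 CPM (log2 -1.69).

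Between single carriers and fibrinogen the balance depended on the carrier. FGB UMIs per ALB UMI were 2.30 in CNT and 3.57 in 3CK, and FGB per TTR was 0.0509 and 0.0752, so by UMI totals both were higher after treatment. FGB per RBP4 was lower, at 1.35 in CNT and 0.807 in 3CK. In the median cell with UMIs of the carrier FGB per ALB went the other way, with 4.20 in CNT and 3.69 in 3CK, while FGB per TTR (0.0535 and 0.0734) and FGB per RBP4 (1.5 and 0.667) kept their direction.

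To count cells at equal depth, each was thinned to 10000 UMIs, which left out no epithelial cell. ALB was then detected in 83.7% of CNT cells (interval 81.2 to 86.0%) and in 61.8% of 3CK cells (58.1 to 65.4%). FGA was detected in 87.5% and 66.8%, FGG in 83.7% and 67.4%, FGB in 97.2% and 89.7%, and AHSG in 23.5% and 17.0%. RBP4 detection was alike, at 94.9% (93.3 to 96.2%) in CNT and 95.3% (93.4 to 96.7%) in 3CK. Nearly every cell had TTR (100% and 99.3%) and AFP (99.7% and 97.6%). Without thinning, where treated cells were deeper, ALB was detected in 98.2% and 90.7% of cells and FGA in 97.6% and 90.2%, the same order as after thinning.

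Collagen-positive cells carried UMIs of these genes too, at levels that differed between the libraries. TTR stood at 1253 CPM in them in CNT and 259 CPM in 3CK, which is 52.7-fold and 75.1-fold below the epithelium. For the other members the epithelium was 26.6-fold (ALB) to 62.6-fold (FGA) higher in CNT and 29.0-fold (ALB) to 64.6-fold (FGG) higher in 3CK. In thinned collagen cells ALB was detected in 37.0% (CNT) and 10.1% (3CK), FGB in 44.2% and 31.2%, AFP in 84.8% and 47.7%, and TTR in 100% and 86.2%. The epithelial share was above that level for every member except TTR in CNT, where both shares were 100%, so detection of TTR in a cell does not show that the cell makes it. All 8 members were also lower in 3CK than in CNT within the collagen cells, with log2 ratios from -2.27 (TTR) to -0.60 (RBP4), and the part of free RNA in the epithelial ratios was not tested.

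**Figure D3:**
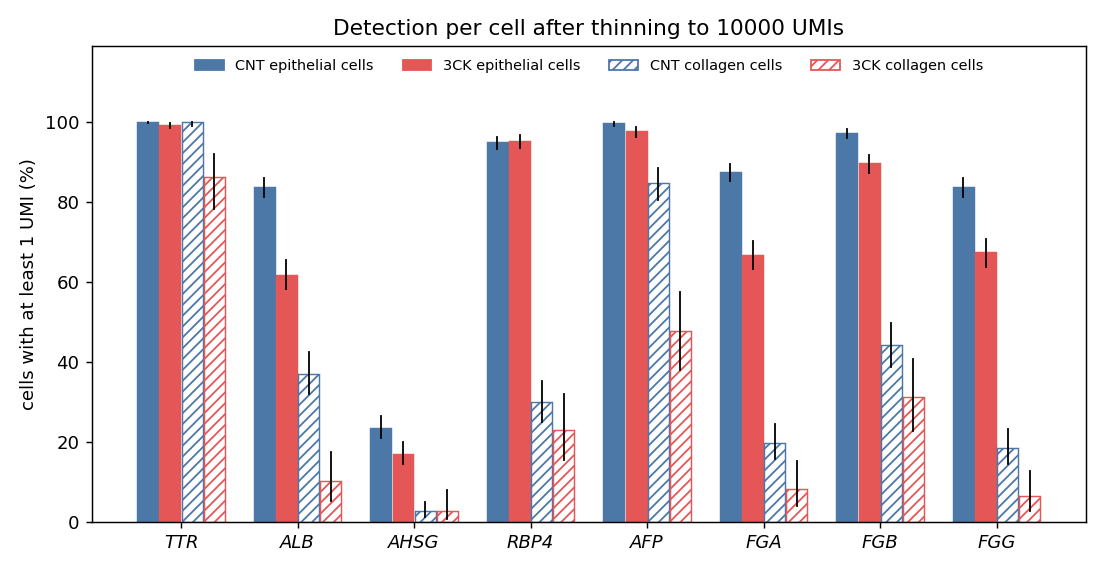
Percentage of cells with at least 1 UMI after thinning to 10000 UMIs (vertical axis, from 0) for each member, in epithelial cells (filled bars) and collagen-positive cells (hatched bars) of CNT (blue) and 3CK (red). Lines are exact binomial 95% intervals, which cover counting error only. ALB, FGA and FGG show the widest gaps between the 2 epithelial bars, and RBP4 shows none.

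Fewer treated cells had the complete set of fibrinogen transcripts. After thinning, FGA, FGB and FGG were all detected in 737 of 943 CNT cells (78.2%, interval 75.4 to 80.8%) and in 389 of 717 3CK cells (54.3%, 50.5 to 57.9%). No chain was detected in 14 CNT cells (1.48%) and 52 3CK cells (7.25%), and exactly 1 chain in 64 and 114. Without thinning the complete set was found in 95.2% and 83.4%. All 8 members were found together in 181 CNT cells (19.2%) and 72 3CK cells (10.0%), and the 7 members other than AHSG in 66.8% and 38.4%.

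Nearly every cell with ALB also had AFP, as did nearly every cell of either library. AFP without ALB was seen in 151 CNT cells (16.0%) and 261 3CK cells (36.4%) after thinning. ALB without AFP was seen in none of 943 CNT cells and in 4 of 717 3CK cells (0.56%), and in none of either library without thinning. AFP was detected in 940 CNT and 700 3CK cells after thinning, so few cells could have shown ALB without it. AHSG was found in 24.8% of CNT cells with ALB and 16.9% of those without, and in 19.6% and 12.8% in 3CK. AFP was more abundant than ALB in both libraries, and the part of its level in their joint detection was not tested.

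Across cells within each library, the fibrinogen chains varied together more than any other members did. Pearson's r of ln(1 + UMIs per 10000) was 0.84 for FGA with FGG over the 943 CNT cells and 0.83 over the 717 3CK cells. FGA with FGB had 0.80 and 0.83, and FGB with FGG 0.79 in both. TTR with RBP4 had 0.60 and 0.69, FGB with AFP 0.62 and 0.72, and the neighbours ALB and AFP only 0.41 and 0.46. TTR with AHSG was lowest, at 0.10 and 0.09. Cells of a library share its depth, its free RNA and its preparation, so these values describe the 2 libraries and carry no test.

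**Figure D4:**
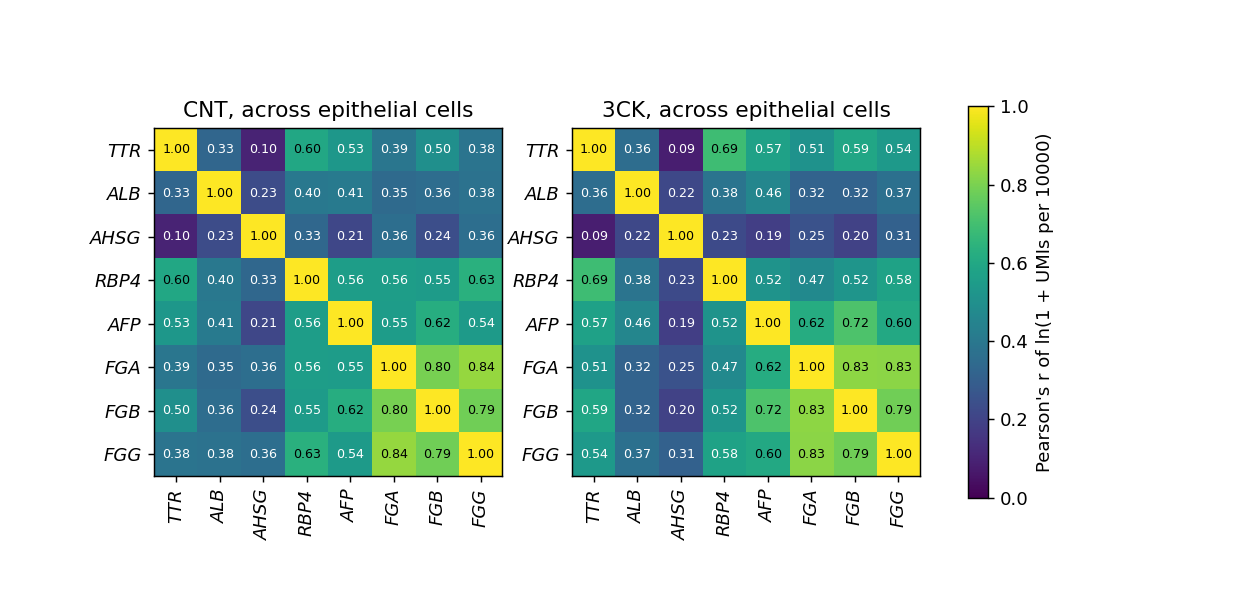
Pearson's r across epithelial cells between all pairs of the 8 members, on ln(1 + UMIs per 10000), in CNT (left) and 3CK (right); both panels share the colour scale from 0 to 1. The block of FGA, FGB and FGG at the lower right is brightest in both panels (0.79 to 0.84), and the AHSG row is darkest.

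The genes most like the members were ranked among 2548 genes with at least 50 CPM in both libraries, by the mean of the 2 within-library r values. FGB was closest to FGA (mean r 0.81), FGG (0.79) and AFP (0.67), then to VTN (vitronectin, 0.63) and APOE (apolipoprotein E, 0.59). TTR was closest to RBP4 (0.65), then APOA1 (0.62), RAMP1 (a receptor activity-modifying protein, 0.62), APOC1 (0.61) and APOA2 (0.61). ALB was closest to AFP (0.43), APOC3 (0.42), VTN (0.41), RBP4 (0.39) and APOM (0.39). The apolipoproteins among them carry lipid in plasma. The partners that are not members were all lower in 3CK, from APOC1 and APOA2 (both log2 -1.67) to APOE (-0.53).

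The direction was the same at every depth. When each library's cells were ranked by depth and divided into 4 equal parts, all 8 members were lower in 3CK in all 4, with ALB from -2.13 to -1.66, TTR from -1.98 to -1.58, FGB from -1.47 to -0.84 and RBP4 from -0.61 to -0.34. Cells with chromogranin transcripts (6 in CNT, 3 in 3CK) and cycling cells (8 and 14) were few. Without both kinds the log2 ratio was -1.74 for TTR, -1.81 for ALB, -1.18 for FGB and -0.43 for RBP4. Cycling cells in 3CK had 458 CPM of FGB and 214 CPM of ALB, against 1493 and 417 CPM in the remaining 3CK cells, but 14 cells of 1 library allow no comparison beyond these values.

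UMIs of an intestinal factor and of the hepatic genes were detected in the same barcodes. CDX2, the transcription factor that specifies intestinal epithelium, was detected in 467 of 943 CNT cells (49.5%) and 331 of 717 3CK cells (46.2%) after thinning, a split chosen after the values were seen. Collagen cells had it in 69 of 335 (interval 16.4 to 25.3%) and 24 of 109 (14.6 to 31.0%), at 28.1 and 34.3 CPM against 81.4 and 83.3 CPM in the epithelium. ALB was detected in 85.4% of CNT cells with CDX2 and 81.9% of those without, and in 64.4% and 59.6% in 3CK. All 3 fibrinogen chains and CDX2 were detected together in 368 CNT cells (39.0%) and 192 3CK cells (26.8%), and in 1 of 335 and 1 of 109 collagen cells. ALB with CDX2 was found in 42.3% and 29.7% of epithelial cells, and in 6.57% and 2.75% of collagen cells. The part of free RNA in this joint detection was not tested. In 3CK the level of FGB was 1925 CPM in cells with CDX2 and 1064 CPM in those without, while the CNT values were 3654 and 3058 CPM. Of the 8 log2 ratios, 7 were lower in cells without CDX2 than in those with it: -0.93 for FGB, -0.15 for RBP4 and -1.50 for TTR in cells with CDX2, and -1.52, -0.77 and -2.04 in those without. AHSG went the other way, with -0.88 in cells with CDX2 and -0.76 in those without, and in 3CK it was detected in 14.2% of cells with CDX2 and 19.4% of those without. EPCAM, which is part of the epithelial rule, had a higher r with all 8 members in 3CK than in CNT: with RBP4 it was 0.06 in CNT and 0.45 in 3CK, and with FGB 0.06 and 0.36. With AHSG it was negative in both, at -0.17 and -0.06.

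Markers describe what kind of epithelium carried the 8 transcripts. For comparison, 7.74% of all genes tested were at least 2-fold lower in 3CK and 8.07% at least 2-fold higher. Of the 9 tested hepatocyte or fetal liver markers, all 9 were lower and 5 at least 2-fold lower, and their summed level was 27174 CPM in CNT (5th to 95th percentile of cells 2007 to 76538) and 11047 CPM in 3CK (914 to 34129). Mature hepatocyte markers had 438 and 102 CPM, 4 of 4 tested at least 2-fold lower, and yolk sac markers had 466 and 171 CPM, 3 of 6. Intestinal markers had 1973 CPM in CNT (5th to 95th percentile of cells 187 to 7578) and 536 CPM in 3CK (49.8 to 1445), with 5 of 9 at least 2-fold lower. The libraries are titled as colon epithelium, and CDX2 was present at 81.4 and 83.3 CPM, while the colonic marker CA1 (0.658 and 1.44 CPM) stayed under the minimum of 10 CPM. General epithelial markers had 11173 and 21743 CPM, with 2 of 7 at least 2-fold higher and EPCAM itself at 1124 and 960 CPM. Those 2 were KRT8 (3087 and 7145 CPM) and KRT18 (4225 and 11007 CPM). Collagen cells held much of both, with 3287 and 3985 CPM of KRT8 and 5059 and 6968 CPM of KRT18. CDH1, CLDN4 and ELF3 were higher by less than 2-fold, and KRT19 (2387 and 2065 CPM) was lower, like EPCAM. Summed hepatic, yolk sac and intestinal transcripts were thus lower together in cells chosen for EPCAM. The higher sum of epithelial markers came mostly from KRT8 and KRT18, which were not particular to these cells.

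Markers of other cell types were detected in this epithelium as well. Mesenchymal markers had 186 CPM in CNT and 67.5 CPM in 3CK (3 of 5 tested at least 2-fold lower), where the rule itself limits the collagens. Leukocyte markers had 91.1 and 113 CPM (0 of 3 past 2-fold), endothelial 19.5 and 27.6 (0 of 1), neural 231 and 334 (1 of 2 at least 2-fold higher), pancreatic 25.7 and 20.5 (1 of 1 at least 2-fold lower) and enteroendocrine 17.9 and 8.07 (1 of 1, with GCG at 0). Median mitochondrial share was 2.47% in CNT and 2.35% in 3CK. Their part in the members' ratios was not tested.

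Other liver plasma proteins went with the members. Of 9 tested besides the carriers above, all 9 were lower, with a median of -1.32. At least 2-fold lower were 6 of the 9, where 7.74% of all genes tested were. APOA1, APOA2, APOB, APOC3, AMBP, VTN and TF are also among the hepatocyte or fetal liver markers above, so these counts share genes. The most abundant, APOA1 (the main protein of high-density lipoprotein), had 11345 CPM in CNT and 5363 CPM in 3CK. APOB, the scaffold of chylomicrons and low-density lipoprotein, had 677 and 141 CPM. The lowest ratio was that of KNG1 (kininogen, log2 -3.24) and the highest that of TF (transferrin, itself a negative acute-phase protein, log2 -0.62). Clotting factors and their inhibitors, which act on or beside fibrinogen, had a median of -1.03. Of 7 tested, 4 were at least 2-fold lower, where 7.74% of all genes tested were, and none was higher. PROS1 (protein S), the most abundant by its mean over both libraries, had 83.3 CPM in CNT and 52.0 CPM in 3CK. F10 (factor X) had 91.8 and 34.7 CPM, F2 (prothrombin, the precursor of thrombin) 71.4 and 36.6 CPM, F7 (factor VII) the lowest ratio at -2.02 and F12 (factor XII) the highest at -0.20. F9 had no UMI in either library.

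Positive acute-phase proteins other than fibrinogen that reached the minimum split into a large group that was higher and a smaller one that was not. Of 16 tested, 11 were at least 2-fold higher and 2 at least 2-fold lower, with a median of 3.09, where 8.07% of all genes tested were at least 2-fold higher. The minimum of 10 CPM could be met in either library. C3, CP, LBP, SAA4 and LRG1 met it in 3CK alone, and APCS and HAMP in CNT alone. Of the list genes under it, C4A had no UMI. HP, ORM1, ORM2, CRP, FGL1, ITIH3 and ITIH4 had log2 ratios from -1.45 (FGL1) to -0.11 (ORM1). The count and median leave these genes out. LCN2 (lipocalin-2, which binds bacterial siderophores) went from 16.4 CPM in CNT to 713 CPM in 3CK, and collagen cells held 18.1 and 35.9 CPM of it, above the epithelium in CNT and below it in 3CK. C3 (complement component 3) went from 5.54 to 199 CPM, CFB (complement factor B) from 26.3 to 288 CPM and SERPING1 (the C1 inhibitor) from 12.7 to 352 CPM. Collagen cells held 55.7 and 174 CPM of C3, 10.4 and 98.2 CPM of CFB and 57.7 and 314 CPM of SERPING1, so that C3 and SERPING1 were higher there than in the epithelium in CNT. The copper carrier CP went from 0.512 to 14.5 CPM, LBP, which binds bacterial lipopolysaccharide, from 4.83 to 31.9 CPM and SAA4 from 2.95 to 32.6 CPM, where collagen cells held 4.28 and 70.4 CPM of SAA4. SAA1 had 26.3 and 871 CPM and SAA2 11.1 and 778 CPM (log2 6.13, the highest of the list), but these near-identical copies can share reads, and collagen cells held more of both (611 and 4646 CPM of SAA1), and the part of free RNA in the values of this list was not tested.

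The exceptions among the tested genes of that list were HPX, APCS, SERPINA1, HAMP and A2M. HPX (hemopexin, which binds heme) had 79.1 CPM in CNT and 30.0 CPM in 3CK (log2 -1.40), and APCS (serum amyloid P) 23.1 and 5.98 CPM (log2 -1.95). SERPINA1 (alpha-1-antitrypsin), the most abundant of the list in CNT, had 904 and 717 CPM (log2 -0.33). The iron hormone gene HAMP (log2 -0.24) and the protease inhibitor A2M (log2 0.91) were also within 2-fold. Across cells, SERPINA1 and HPX also varied with the members: r of SERPINA1 with FGG was 0.58 in CNT and 0.56 in 3CK, and r of HPX with FGA was 0.51 and 0.44. For SAA1 and LCN2 r with any member lay between -0.26 and 0.12 in both libraries. By this description fibrinogen varied with SERPINA1 and HPX in both libraries. Most CNT cells had no UMI of SAA1 or of LCN2, so r cannot show there whether fibrinogen varied with these genes. In 3CK most cells had UMIs of SAA1 and most had UMIs of LCN2, and there fibrinogen varied little with either. The part of free RNA in these r values was not tested.

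The IL-6 and STAT3 axis, the route by which fibrinogen is induced in liver, was mostly higher in the same cells. Of 15 tested, 8 were at least 2-fold higher and 1 at least 2-fold lower, with a median of 1.41. The shares of all genes tested were 8.07% and 7.74%. CEBPB and CEBPD, which also belong to the hepatic transcription factors below, are among the 8. STAT3 had 55.4 CPM in CNT and 168 CPM in 3CK, its feedback inhibitor SOCS3 19.1 and 50.6 CPM, and the kinase JAK2 11.6 and 56.5 CPM (log2 2.29, the highest). OSMR, a receptor chain for oncostatin M, reached 76.2 CPM in 3CK (log2 2.00). The receptor chains for IL-6 itself were lower by less than 2-fold: IL6R had 43.8 and 23.9 CPM (log2 -0.88) and IL6ST, the shared signalling chain, 175 and 100 CPM (log2 -0.81), while LIFR (194 and 89.0 CPM, log2 -1.12) was the 1 gene past 2-fold. Epithelial IL6 was scarce (1.42 and 9.45 CPM), and collagen cells held 34.0 CPM of it in CNT and 695 CPM in 3CK. Protein and phosphorylation were not measured, and the part of free RNA in the values of this list was not tested.

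Transcription factors of the hepatic programme had mostly small ratios. Of 20 tested, 2 were at least 2-fold higher and 3 at least 2-fold lower, with a median of -0.31. Among all genes tested, 8.07% were at least 2-fold higher and 7.74% at least 2-fold lower. CEBPB and CEBPD, the C/EBP members that acute inflammation induces, had 29.6 and 70.7 CPM in CNT and 124 and 201 CPM in 3CK (log2 2.06 and 1.51). They are the 2 higher genes here and were also counted in the IL-6 and STAT3 list. Collagen cells held more of both, with 158 and 271 CPM in CNT and 250 and 296 CPM in 3CK. CEBPA, the C/EBP member of resting hepatocytes, had 56.4 and 22.1 CPM (log2 -1.36), FOXA1 63.9 and 19.1 CPM (log2 -1.74, the lowest) and ONECUT2 a log2 ratio of -1.41. HNF4A stood at 42.0 and 24.5 CPM (log2 -0.78). ZBTB20, a repressor of AFP in postnatal liver, had 127 and 130 CPM.

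Retinol handling and the fetal programme complete the surroundings of RBP4 and AFP. Of 8 retinol genes tested besides TTR and RBP4, 3 were at least 2-fold lower and 1 at least 2-fold higher, with a median of -0.39. Over all genes tested these shares were 7.74% and 8.07%. RBP2, the retinol-binding protein of enterocytes, had 71.6 CPM in CNT and 1.18 CPM in 3CK (log2 -5.93), ALDH1A1, which oxidises retinal to retinoic acid, 99.7 and 31.4 CPM (-1.67), and CRABP2 27.5 and 78.6 CPM (1.52). DHRS3 had 72.7 and 71.8 CPM. RBP4 therefore differed far less than RBP2. Of 10 fetal liver and yolk sac genes tested besides AFP, all 10 were lower and 6 at least 2-fold lower, with a median of -1.22. They include APOA4 (5068 and 1850 CPM), the yolk sac receptor CUBN (117 and 7.41 CPM, log2 -3.99) and APELA (81.2 and 7.83 CPM). H19 had 89.0 and 11.9 CPM in epithelium, but 3090 and 1384 CPM in collagen cells. EPCAM had the highest ratio (log2 -0.23), but the epithelial rule itself sets a minimum for it. CUBN, LRP2, AMN and APELA are also among the yolk sac markers above, so these counts share genes.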

How the data were processed

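The 2 single-cell libraries of 1383D6 colon organoids (CNT and 3CK, grouped by the labelled treatment) were analysed. The authors deposited raw UMI counts for each gene in each barcode, and per the submitters' processing notes they come from Cell Ranger 7.1.0 and GRCh38. Whether intronic reads were counted is not given in the sources used here. About 8300 cells were loaded per library.

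Barcodes with at least 500 genes and at most 20% mitochondrial UMIs were kept, and Scrublet (scanpy 1.11.5) doublets were removed at a rate of 0.8% for every 1000 barcodes (52 CNT, 16 3CK), leaving 2487 and 1398. Epithelial UMIs were added up within a library and divided by their total to give CPM. One UMI from a 3' end stands for one transcript, so CPM were compared between genes without division by length. Intervals are Poisson (exact) for sums and Clopper-Pearson for shares, and that of a ratio was derived from the binomial share of 3CK in the pooled counts. The ratio calculation was checked on simulated data. Current names matched 36366 gene IDs, and the 187 listed symbols were all present. TMM factors came from edgeR 4.0.16 (R 4.3.3), and no edgeR test was run, since each group has 1 library.

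Members and lists were chosen with earlier results of these data known. Named were all members, in each list the most abundant gene, the largest and smallest ratio and genes past 4-fold, the 5 genes most like ALB, TTR and FGB, and some regulators and partners chosen after their values were seen. A few genes and a motif on these lists are not reported here. Alternatives covered barcode filters, doublets, scaling, cell weighting, each threshold of the epithelial rule, thinning and gene minimum. Analyses used Python 3.11.15, numpy 2.4.6 and scipy 1.17.1.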

Additional observations from a re-analysis of the deposited data

How the results depend on the processing

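Under the 15 alternatives tried for the members, all 8 stayed lower in 3CK and 6 at least 2-fold lower. Over them TTR ranged from -1.88 to -1.67, ALB from -1.96 to -1.72, AHSG from -0.89 to -0.52, RBP4 from -0.57 to -0.33, AFP from -1.92 to -1.69, FGA from -1.58 to -1.31, FGB from -1.32 to -1.07 and FGG from -1.60 to -1.34. The carriers' median log2 ratio (-1.27) was -1.39 scaled to a total without the most abundant genes, -1.15 with EPCAM at least 4 per 10000, -1.22 with collagens under 2 or under 10 per 10000, and -1.10 over all kept barcodes. The median of the fibrinogen chains (-1.47) was -1.44 with TMM factors, -1.58 without the most abundant genes, -1.33 with equal weight per cell, -1.50 with EPCAM at least 1 and -1.31 with at least 4 per 10000, -1.39 over all kept barcodes and -1.43 without chromogranin and cycling cells. The cause of these shifts was not tested. At 4-fold 2.47% of genes were lower and 3.54% higher, and with genes from 1 CPM 11.8% were lower at 2-fold. The related lists' medians kept their sign in all 15; the IL-6 and STAT3 list ranged from 0.80 over all kept barcodes to 1.43. Detection shares depend on depth and threshold: with at least 3 UMIs in thinned cells ALB was found in 58.7% of CNT and 37.7% of 3CK cells. No paired analysis was possible because each group has 1 library.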
